A study of Mus musculus with 20 samples.

Results

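Described here are 9 genes tied to naive lymphocytes: the transcription factors Tcf7, Lef1, Bcl11b, Satb1 and Klf2, the receptors Ccr7, S1pr1 and Il7r, and Dapl1. They were chosen by name, with Dapl1 chosen by its large difference after irradiation in mice labelled WT and the other 8 chosen with earlier results of these data known. Every non-control probe that the array files assign to a member was taken, which gave 12 probes for the 9 genes, out of 39429 probes and 31093 gene names on the array. Tcf7, Lef1 and Bcl11b had 2 probes each and the other 6 genes 1 probe each. For a gene with 2 probes the brighter one is given first and stands for the gene in counts. Of the 12 probes, 11 passed the filters on background and on variation, and the dimmer Tcf7 probe did not pass the background filter.

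RNA of whole blood from male mice was hybridised to 20 single-colour arrays, 1 array for each labelled replicate. The mice were C57BL/6 wild types (WT) or littermates homozygous for the Il10tm1Cgn allele (Il10-/-), a germline loss of the gene for the cytokine interleukin-10 in all cells, and were 8 to 10 weeks old. Each genotype received 0 Gy (sham) or 7 Gy of X-rays to the whole body, and blood was taken from the heart 24 h later, which gave 4 groups of 5 arrays. All groups shared the same blood stabiliser, globin reduction and array type, and no group was a sorted population: blood holds neutrophils, monocytes, B cells, T cells, NK cells, platelets and young red cells together. A lower signal in such a sample can come from fewer cells of a type or from less RNA in each cell, and these cannot be told apart here.

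Values are log2 signals over the median of the array, so 1 unit is a 2-fold step and 0 is the median probe. Levels of different genes are not compared, since probes differ in brightness. The word "called" means a limma p below 0.001 together with a false discovery rate under 10%, taken over all 18581 features that passed the filters.

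Some arrays stood apart or went against their labels. The Il10 probe ranged from −2.64 to −1.06 on the 10 arrays labelled WT and was well above background on 0 of them. On the 10 arrays labelled Il10-/- it ranged from 1.94 to 3.29 and was well above background on all 10, so the signal of the targeted gene went against the labels. The sources used here do not place this probe relative to the altered part of the allele, and a probe outside that part would not check the labels. Neutrophil genes differed between the labels as well, the mean of 11 being 2.01 higher in unirradiated mice labelled Il10-/-. Every direction between genotypes rests on the labels as given. Replicates 1 and 2 of each group were nearly identical. Their log2 differences had a robust SD of 0.230 to 0.336, close to the 0.216 to 0.274 given by the scatter between repeated spots of an array, while the other 36 pairs within groups had 0.407 to 1.39. They may be 1 RNA on 2 slides, so the number of mice behind a group may be 4, and counts are also given with replicates 1 and 2 averaged and counted as 1 sample. Replicate 5 of the unirradiated mice labelled WT and replicate 3 of the irradiated mice labelled Il10-/- were weak, with 29.8% and 34.2% of probes well above background against 38.2% to 56.9% on the other arrays. The labels and file headers place 1 array of every group on each of 5 slides under 1 replicate number. Genes of platelets and of erythroid cells, which mark whole blood, were high on all 20 arrays (list means of 6.92 to 10.697 and of 6.98 to 9.83). Genes of other tissues varied with the groups as well: the mean level of 16 liver genes ranged over 0.47 to 2.14 without irradiation and over 2.90 to 10.9 after it in mice labelled WT. Under the Il10-/- label it ranged over 2.16 to 9.14 and over 1.92 to 9.10, with unirradiated replicates 3 and 4 at 7.99 and 9.14. Heart muscle genes (8 measured) ranged over −0.06 to 2.56 and over 0.48 to 7.76 for the WT label and over 0.02 to 3.40 and over 1.81 to 7.55 for the Il10-/- label. The part of these tissues, of platelets and of erythroid cells in the values below was not tested.

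Naive lymphocytes are cells that have left the thymus or bone marrow and have not met their antigen. They recirculate between blood and lymphoid organs, guided by homing and egress receptors, and the naive T cells among them are kept alive at rest by interleukin-7. In T cells this state is held by a set of transcription factors, among them TCF1 (Tcf7), LEF1 and the egress regulator KLF2, and many genes of the set are lowered when a T cell is activated and becomes an effector cell. Lymphocytes are among the blood cells most sensitive to ionizing radiation, and B cells more so than most T cells.

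The probes of Dapl1 and Bcl11b are shown because Dapl1 had the largest difference after irradiation in both genotypes and because the 2 Bcl11b probes gave unequal differences. Both are 60-base oligonucleotides of the array design. The Dapl1 probe lies at chr2:59342824-59342883 on the plus strand and the brighter Bcl11b probe at chr12:109153847-109153906 on the minus strand of the mouse build mm9, as the array files give them.
Dapl1 probe: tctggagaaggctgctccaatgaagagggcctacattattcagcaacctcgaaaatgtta
Bcl11b probe: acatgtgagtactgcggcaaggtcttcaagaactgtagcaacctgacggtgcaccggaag
The brighter probes of the other 7 genes lie at chr11:52066114-52066173 (Tcf7, minus strand), chr3:130926200-130926259 (Lef1, plus), chr17:51879137-51879196 (Satb1, minus), chr8:74845137-74845196 (Klf2, plus), chr11:99005551-99005610 (Ccr7, minus), chr3:115414020-115414079 (S1pr1, minus) and chr15:9435976-9436035 (Il7r, minus) of mm9. The second probes of Tcf7 and Bcl11b lie at chr11:52066738-52066797 and chr12:109148932-109148991, and the files give no position for the second Lef1 probe.

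Promoters are shown for 4 genes that differ in their behaviour below: Dapl1, Bcl11b and Tcf7, which were lower after irradiation, and Klf2, whose groups overlapped. They are the 250 bases before a transcription start in RefSeq, on the build GRCm38.p6, written 5′ to 3′ on the strand of the gene, and their coordinates are not those of the mm9 probes. Capitals mark matches on either strand to 5 short motifs: TGTTTAC (FOXO factors), CACCC (KLF factors), CCGGAAG (ETS factors), CTTTGAA (TCF and LEF factors) and CAGCTG (an E-box). None of the 5 motifs contains another.
Dapl1, chr2:59484403-59484652, plus strand: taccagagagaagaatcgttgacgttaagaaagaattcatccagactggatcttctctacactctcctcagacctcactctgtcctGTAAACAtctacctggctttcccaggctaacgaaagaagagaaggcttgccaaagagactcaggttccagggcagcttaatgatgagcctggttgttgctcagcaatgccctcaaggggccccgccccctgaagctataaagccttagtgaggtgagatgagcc
Bcl11b, chr12:108003415-108003664, minus strand: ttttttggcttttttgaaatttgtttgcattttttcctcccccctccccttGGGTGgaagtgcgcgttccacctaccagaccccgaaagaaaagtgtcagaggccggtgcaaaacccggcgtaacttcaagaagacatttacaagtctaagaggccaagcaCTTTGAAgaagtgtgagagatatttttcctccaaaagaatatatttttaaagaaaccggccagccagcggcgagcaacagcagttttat
Tcf7, chr11:52282596-52282845, minus strand, 1 of 2 starts: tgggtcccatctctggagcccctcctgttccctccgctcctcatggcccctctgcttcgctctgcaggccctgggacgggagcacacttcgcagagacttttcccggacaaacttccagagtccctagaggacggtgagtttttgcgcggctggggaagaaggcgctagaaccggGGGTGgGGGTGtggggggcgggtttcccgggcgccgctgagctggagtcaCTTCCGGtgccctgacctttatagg
Klf2, chr8:72318812-72319061, plus strand: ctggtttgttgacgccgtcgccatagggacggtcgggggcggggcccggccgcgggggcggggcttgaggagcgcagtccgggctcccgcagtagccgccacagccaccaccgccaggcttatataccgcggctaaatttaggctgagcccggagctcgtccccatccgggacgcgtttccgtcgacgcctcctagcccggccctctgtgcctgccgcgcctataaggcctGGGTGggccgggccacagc
The Dapl1 promoter held 1 FOXO match, 164 to 158 bases before the start. Bcl11b held a KLF match at 199 to 195 bases and a TCF/LEF match at 89 to 83 bases before the start. Tcf7 held a pair of KLF matches at 75 to 71 and 69 to 65 bases and an ETS match at 25 to 19 bases, and Klf2 held 1 KLF match at 19 to 15 bases. Over all 32851 promoters of the table, 3.17% held the FOXO letters, 52.0% the KLF letters, 6.91% the ETS letters, 4.46% the TCF/LEF letters and 13% the E-box. Of the 15 promoters listed for 7 of the 9 genes, 1 held the FOXO, 1 the ETS and 1 the TCF/LEF letters, 12 the KLF letters and 3 the E-box, and the Il7r promoter held none of them. The 15 include alternative starts of Lef1, Satb1 and Tcf7, some with overlapping windows, so the same match can count more than once. By gene, 5 of 7 held the KLF letters. S1pr1 and Ccr7 had no entry. Such matches describe letters in a window and are no evidence of binding.

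In mice labelled WT, 8 of the 9 genes had a lower mean after 7 Gy, from −1.22 for S1pr1 to −5.86 for Dapl1, and Klf2 was 0.17 higher. In mice labelled Il10-/- all 9 means were lower, from −0.17 for Klf2 to −4.81 for Dapl1. Called as lower were 4 members in mice labelled WT (Tcf7, Lef1, Ccr7 and Dapl1), where 2.32% of all features were called lower, and 7 in mice labelled Il10-/- (those 4 with Bcl11b, S1pr1 and Il7r), where 5.87% were. Since the members were chosen with these contrasts known, nothing is read from these counts. With replicates 1 and 2 averaged the counts were 3 (Tcf7, Ccr7 and Dapl1) and 5 (Tcf7, Lef1, Ccr7, S1pr1 and Dapl1). With the slide as a block they were 4 and 5, and Bcl11b and Il7r lost their call in mice labelled Il10-/-. Without both weak arrays they were 5 and 6, and with normexp background correction no member was called in either genotype. The median difference of the 9 genes was −1.45 in mice labelled WT and −1.66 in mice labelled Il10-/-, beside −0.02 and −0.10 over all features. All irradiated arrays lay below all unirradiated ones for 4.26% of all features in mice labelled WT and 10.9% in mice labelled Il10-/-. These shares are the scale for members whose doses did not overlap below.

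**Figure D1:**
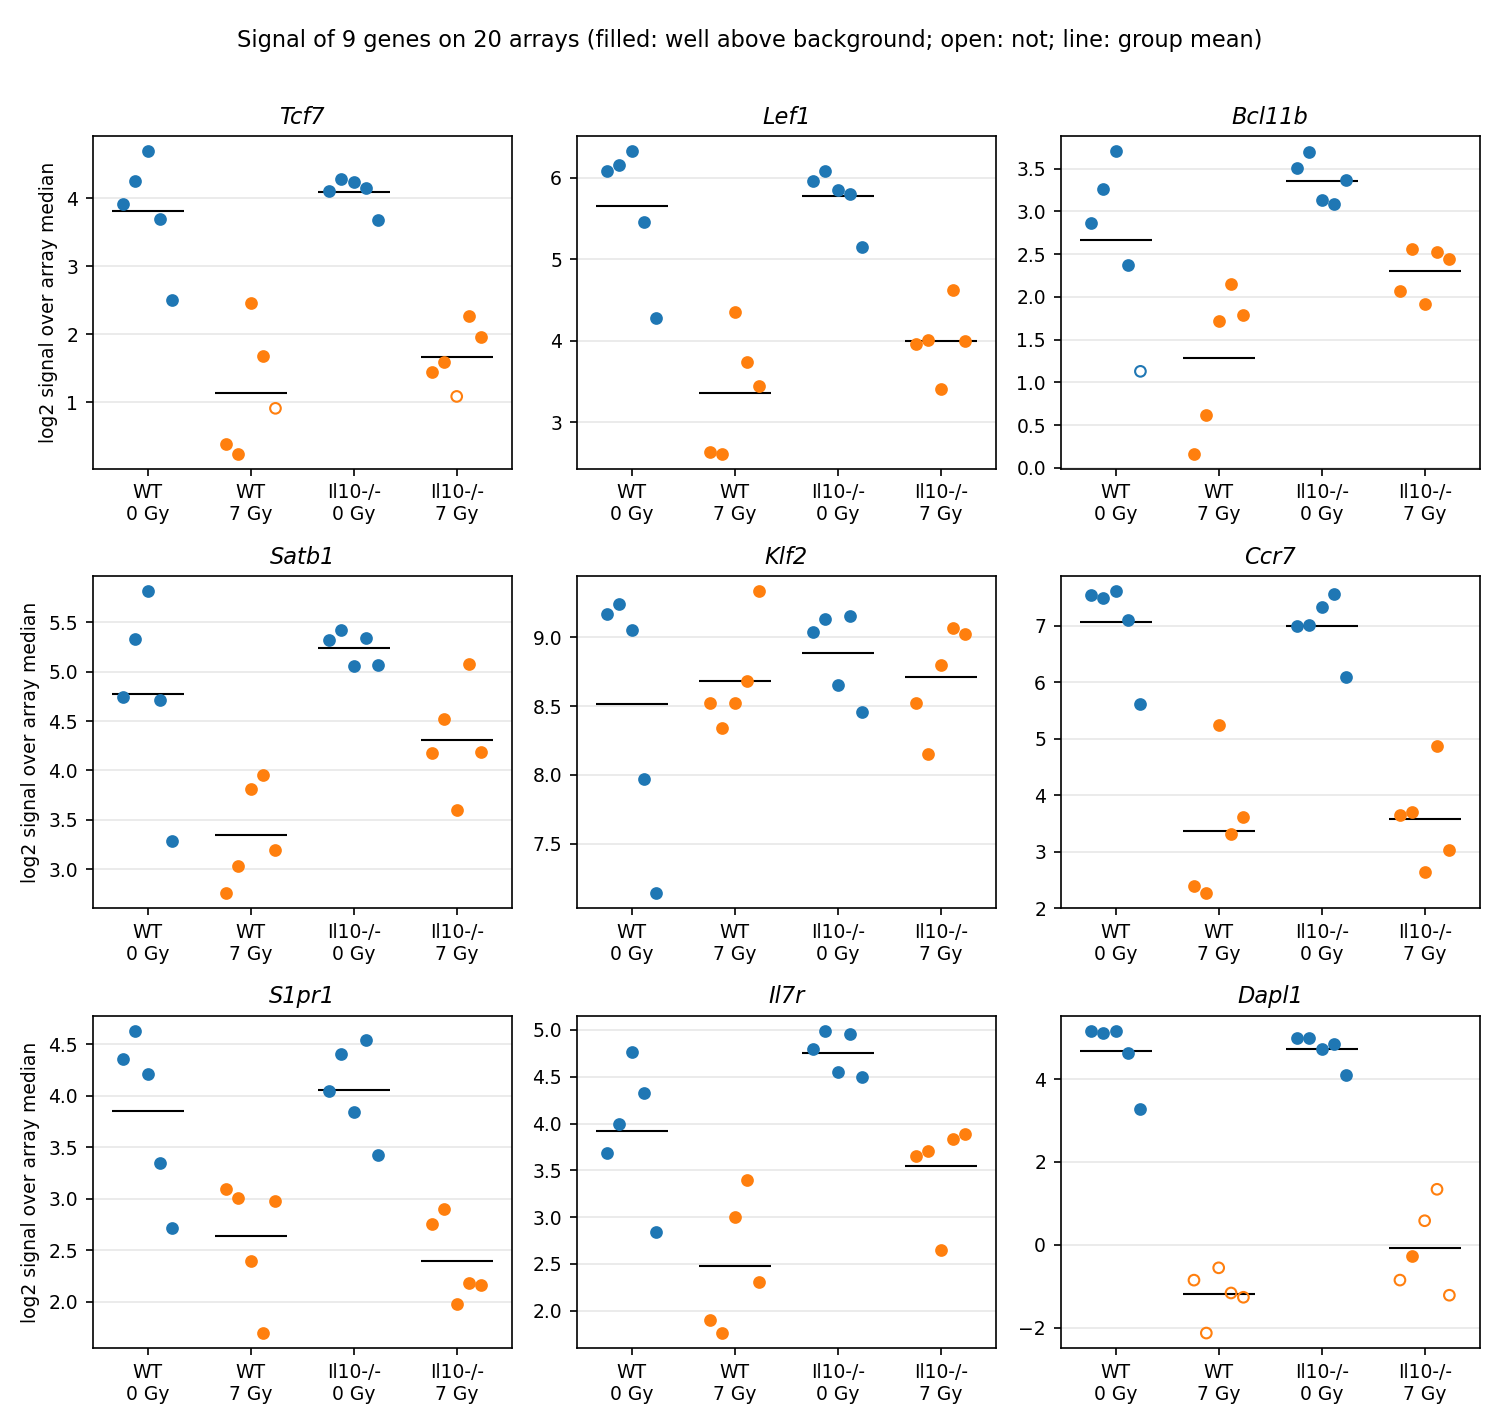
Log2 signal over the array median (vertical axis) of the 9 genes on the 20 arrays, in 4 groups by genotype label and dose; each point is 1 array, filled where the probe was well above background and open where it was not, and lines are group means. Dapl1 separates the doses by the widest gap of the panels, with mostly open points in the irradiated groups, Ccr7 and Tcf7 separate them in both genotypes, and Klf2 overlaps across all 4 groups.

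Tcf7 encodes TCF1, a transcription factor that establishes and keeps T-cell identity and marks naive and stem-like memory T cells. In mice labelled WT its signal was 3.92, 4.26, 4.69, 3.70 and 2.51 without irradiation and 0.38, 0.24, 2.46, 1.68 and 0.91 after 7 Gy (replicates 1 to 5). All irradiated arrays lay below all unirradiated ones, by a small gap, because replicate 5 at 0 Gy was low and replicate 3 at 7 Gy high. In mice labelled Il10-/- the values were 4.11, 4.29, 4.24, 4.15 and 3.68 at 0 Gy and 1.44, 1.60, 1.09, 2.27 and 1.96 at 7 Gy. These groups were over 1 unit apart, and the differences of the means were −2.68 in mice labelled WT and −2.42 in mice labelled Il10-/-. The dimmer probe differed by −2.58 and −2.09 and was well above background on 1 irradiated array labelled WT and on none labelled Il10-/-, where the mean was at least 2.17-fold lower.

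Lef1, the partner of TCF1 in the same family of DNA-binding factors, was measured at 6.08, 6.15, 6.32, 5.46 and 4.28 in unirradiated mice labelled WT and at 2.63, 2.62, 4.36, 3.73 and 3.45 in irradiated ones. The groups overlapped by 1 array each, replicate 5 at 0 Gy and replicate 3 at 7 Gy. Among mice labelled Il10-/- it was 5.96, 6.09, 5.85, 5.80 and 5.15 at 0 Gy and 3.96, 4.01, 3.41, 4.62 and 4.00 at 7 Gy, without overlap. Means differed by −2.30 and −1.77 on the brighter probe and by −2.10 and −1.34 on the other, so both probes of Lef1 were lower after irradiation.

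Bcl11b encodes a zinc finger factor that commits thymocytes to the T lineage and is kept in mature T cells, naive and experienced alike. Unirradiated mice labelled WT gave 2.86, 3.26, 3.70, 2.37 and 1.13, and irradiated ones 0.17, 0.62, 1.72, 2.15 and 1.79. The weak replicate 5 at 0 Gy lay within the irradiated range. Mice labelled Il10-/- gave 3.50, 3.69, 3.13, 3.09 and 3.37 at 0 Gy against 2.07, 2.57, 1.91, 2.52 and 2.44 at 7 Gy, 2 tight sets with a gap between them. The means differed by −1.38 and −1.05. The second probe differed by −2.63 and −1.59, a larger step, but it was well above background on 1 of 5 irradiated arrays labelled WT and 2 of 5 labelled Il10-/-.

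Satb1, a chromatin organiser needed for thymocyte development and expressed in resting T cells, read 4.74, 5.33, 5.82, 4.71 and 3.28 in unirradiated and 2.75, 3.03, 3.81, 3.95 and 3.19 in irradiated mice labelled WT. The ranges overlapped only through replicate 5 at 0 Gy. Mice labelled Il10-/- read 5.32, 5.43, 5.06, 5.35 and 5.07 at 0 Gy and 4.17, 4.52, 3.60, 5.08 and 4.19 at 7 Gy. There, irradiated replicate 4 reached the unirradiated range. The mean differences were −1.43 and −0.93, and Satb1 was called in neither genotype.

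Klf2 is the regulator that drives S1pr1 in resting T cells and is also abundant in endothelial cells and in other leukocytes. Its doses overlapped in both genotypes, and its mean differences lay closest to 0 of the 9 members. Its values were 9.17, 9.24, 9.05, 7.97 and 7.14 in unirradiated and 8.52, 8.34, 8.52, 8.68 and 9.34 in irradiated mice labelled WT. The mean difference of 0.17 became −0.18 without replicate 5 of the unirradiated group, so its sign in these mice rests on that weak array. For mice labelled Il10-/- they were 9.04, 9.13, 8.66, 9.16 and 8.46 at 0 Gy and 8.52, 8.16, 8.80, 9.07 and 9.03 at 7 Gy, with a difference of −0.17. Endothelial genes moved beside it: the mean of the 8 genes of 14 that passed the background filter lay between 1.52 and 3.15 at 0 Gy and between 3.52 and 4.199 at 7 Gy in mice labelled WT. For the Il10-/- label it lay between 2.73 and 3.21 without irradiation and between 3.40 and 4.31 after it. Their part in the Klf2 and S1pr1 values was not tested.

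Ccr7, the chemokine receptor that brings naive T cells, B cells and dendritic cells into lymph nodes, had 7.54, 7.50, 7.61, 7.10 and 5.61 in unirradiated mice labelled WT and 2.39, 2.26, 5.24, 3.32 and 3.62 in irradiated ones. Replicate 3 at 7 Gy came close to replicate 5 at 0 Gy, and the groups did not overlap. The mean was 13.04-fold lower (−3.71). Under the Il10-/- label the array values were 6.99, 7.01, 7.34, 7.57 and 6.09 at 0 Gy and 3.65, 3.70, 2.63, 4.88 and 3.03 at 7 Gy, a mean 10.71-fold lower (−3.42). All 20 arrays measured Ccr7 well above background, so both folds are measured and not bounds.

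S1pr1 encodes the sphingosine 1-phosphate receptor by which lymphocytes leave lymphoid organs for the blood. Arrays of unirradiated mice labelled WT read 4.35, 4.63, 4.21, 3.35 and 2.71, and those of irradiated mice 3.10, 3.01, 2.40, 1.70 and 2.98. The 0 Gy replicate 5 lay inside the irradiated range. For mice labelled Il10-/- the readings were 4.05, 4.41, 3.84, 4.54 and 3.43 at 0 Gy against 2.75, 2.90, 1.97, 2.18 and 2.16 at 7 Gy, without overlap. The means differed by −1.22 and −1.66.

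Il7r, the interleukin-7 receptor chain on which resting T cells depend for survival, was at 3.69, 3.99, 4.76, 4.33 and 2.84 in unirradiated and at 1.90, 1.76, 3.00, 3.40 and 2.31 in irradiated mice labelled WT. Irradiated replicates 3 and 4 overlapped the lowest unirradiated array. Mice labelled Il10-/- had 4.79, 4.99, 4.55, 4.96 and 4.50 at 0 Gy and 3.66, 3.70, 2.64, 3.83 and 3.89 at 7 Gy. These ranges were apart, and the mean differences were −1.45 and −1.21.

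Dapl1 encodes a small protein, death associated protein-like 1, whose transcript has been found in naive T cells. Its signal without irradiation was 5.15, 5.11, 5.16, 4.63 and 3.29 in mice labelled WT. Unirradiated mice labelled Il10-/- had 4.99, 4.99, 4.72, 4.85 and 4.09, and the signal was well above background on all 10 of these arrays. After 7 Gy it was −0.85, −2.13, −0.55, −1.16 and −1.26 in mice labelled WT, on none of which it was well above background. In irradiated mice labelled Il10-/- it was −0.85, −0.27, 0.58, 1.34 and −1.21, and only replicate 2 was well above background. A level that is not well above background is a bound: in mice labelled WT the mean was at least 30.0-fold lower after irradiation, measured against the dimmest signal well above background on each array. In mice labelled Il10-/- the mean difference of −4.81 rests on irradiated signals of which 4 of 5 were not well above background, so it is not given as a measured fold. The 10 irradiated arrays thus lay between −2.13 and 1.34 and the 10 unirradiated ones between 3.29 and 5.16.

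Within slides, where the irradiated and the unirradiated array of a genotype lie side by side, Tcf7, Lef1, Satb1, Ccr7, Il7r and Dapl1 were lower after irradiation on 5 of 5 slides in both genotypes. The members were chosen with these contrasts known, so nothing is read from the number of such genes. The Dapl1 difference ran from −7.24 to −4.55 in mice labelled WT and from −5.84 to −3.51 in mice labelled Il10-/-. Ccr7 ran from −5.23 to −1.99 and from −4.70 to −2.69. Bcl11b and S1pr1 were lower on 4 of 5 slides in mice labelled WT, with 0.66 and 0.27 on the slide of the weak replicate 5, and on 5 of 5 in mice labelled Il10-/-. Klf2 was lower on 3 of 5 slides in both. In mice labelled WT slides 1 and 2, which may carry the same RNA, gave the 2 lowest differences of Tcf7, Lef1, Bcl11b, Klf2, Ccr7, Il7r and Dapl1.

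**Figure D2:**
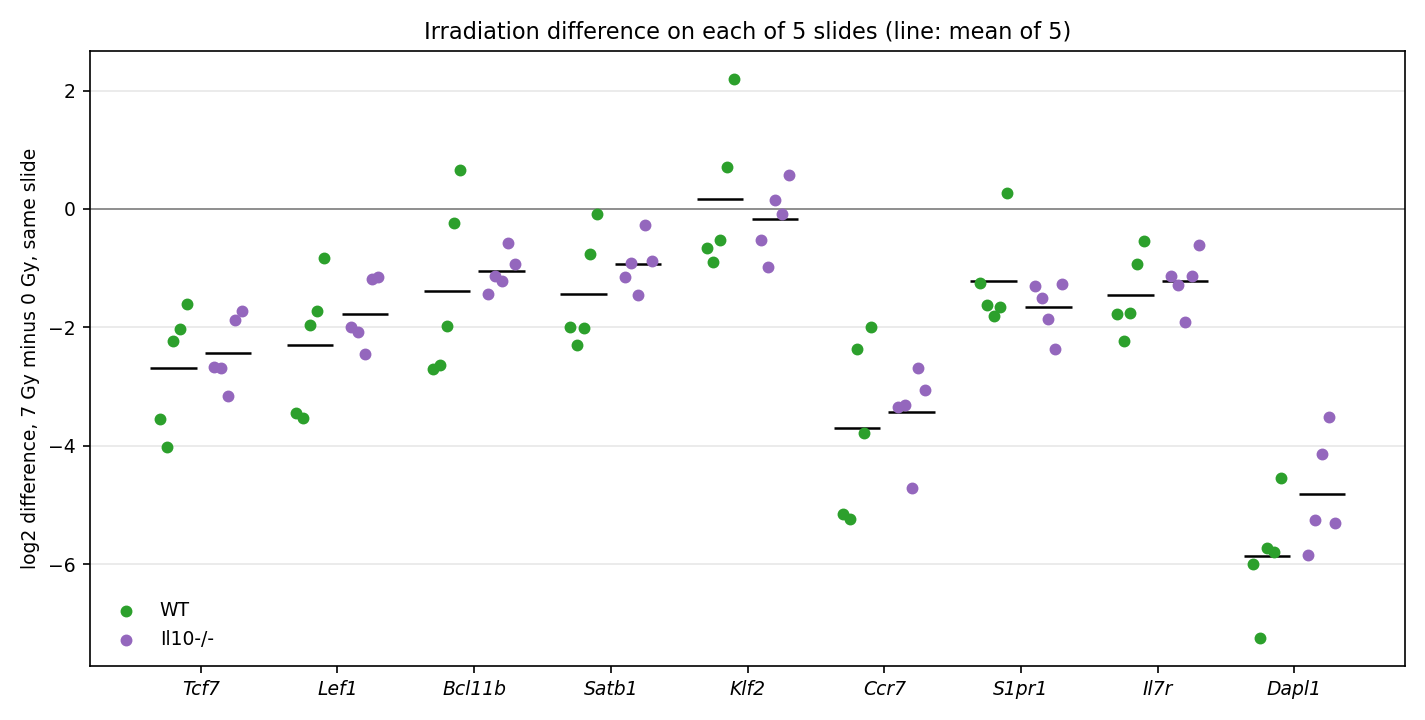
Log2 difference between the 7 Gy and the 0 Gy array of the same slide (vertical axis) for each of the 9 genes; each point is 1 of 5 slides, in green for mice labelled WT and purple for mice labelled Il10-/-, and lines are means of 5. All points of Dapl1 lie below −3, those of Klf2 lie on both sides of 0, and Bcl11b and S1pr1 have 1 point above 0 in mice labelled WT.

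To set the members beside T cells as a whole, the mean of 14 genes of the T-cell receptor complex and its coreceptors was subtracted on each array. That mean was itself 0.49 lower after irradiation in both genotypes (−0.49), so every member difference is 0.49 higher on this scale. Relative to it Dapl1 differed by −5.37 in mice labelled WT and −4.32 in mice labelled Il10-/-, differences between signals and not measured folds, since its irradiated signal was well above background on 0 of 5 and 1 of 5 arrays. Ccr7 differed by −3.21 and −2.94, Tcf7 by −2.19 and −1.94, and Lef1 by −1.81 and −1.28. Lef1 no longer overlapped between doses in mice labelled WT, with 0.02 to 0.53 at 0 Gy and −1.76 to −0.94 at 7 Gy. The smaller differences were −0.96 and −0.73 for Il7r, −0.94 and −0.45 for Satb1, −0.89 and −0.57 for Bcl11b, and −0.72 and −1.17 for S1pr1. Klf2 was 0.66 and 0.31 higher on this scale, with overlapping groups. S1pr1 also overlapped in mice labelled WT and Satb1 in mice labelled Il10-/-. The means of Ccr7, Tcf7 and Lef1, chosen with these contrasts known, were lower by more than the mean of the list was, and single genes of the list were as low: Cd8a differed by −3.03 and −2.02 from the array median, more than Lef1 in both genotypes. This scale does not separate a loss of naive cells among T cells, of B cells that share a gene such as Ccr7, or of transcript in each cell.

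**Figure D3:**
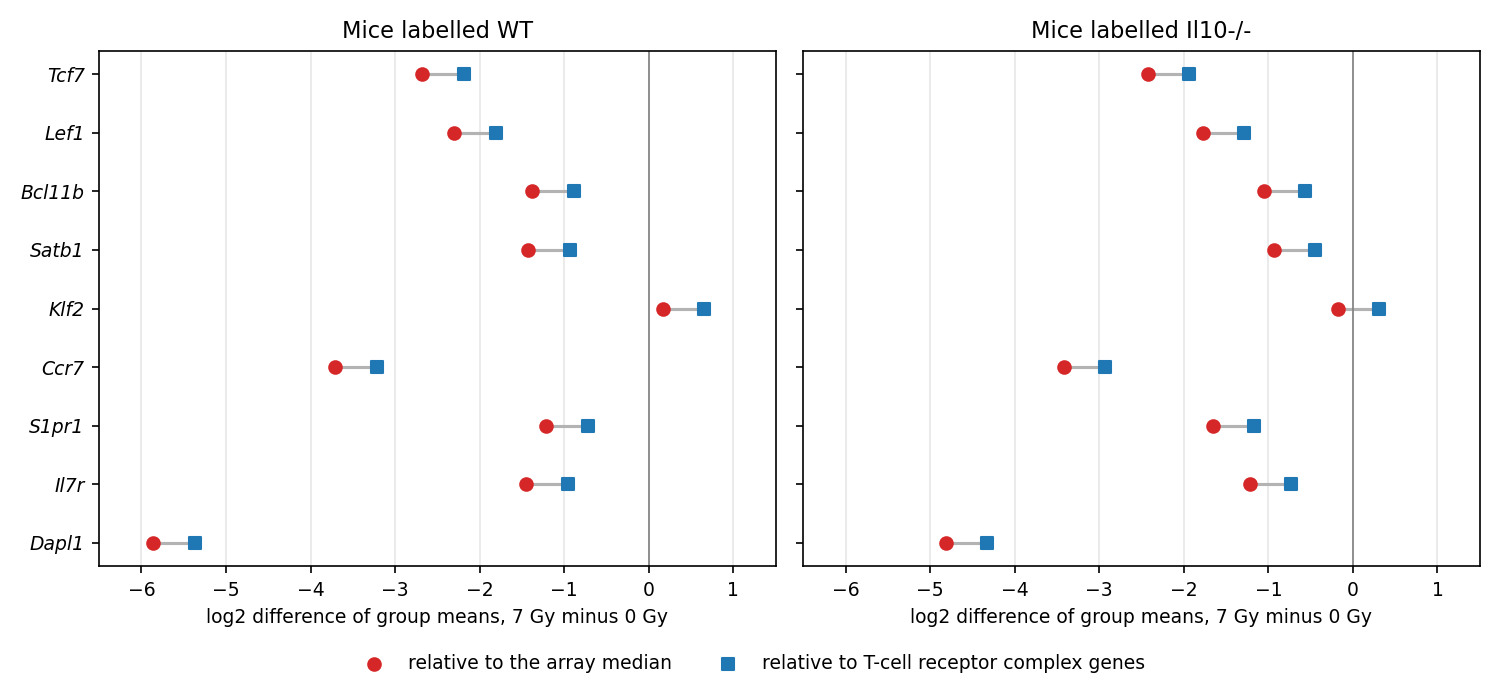
Difference of group means, 7 Gy minus 0 Gy in log2 units (horizontal axis), for each gene relative to the array median (red circles) and to the mean of 14 T-cell receptor complex genes on the same array (blue squares), with mice labelled WT on the left and Il10-/- on the right. Squares lie 0.49 to the right of circles for every gene, and Dapl1 and Ccr7 stay below −2.9 on either scale; the irradiated Dapl1 signal was mostly not well above background.

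Other genes of the naive and quiescent state were less uniform. Of 34 such genes, 33 were tested. In mice labelled WT 3 were called lower and 1 higher, beside 2.32% of all features called lower and 4.48% called higher, and the median difference was −0.20. The 3 called lower were Bach2 (−3.32), a repressor that restrains effector differentiation in T cells and plasma cell differentiation in B cells, Nsg2 (−3.20), and Ets1 (−1.96), a factor of resting lymphocytes. Rgs10, a regulator of G-protein signaling, was the gene called higher (1.495). In mice labelled Il10-/- 7 were called lower and 0 higher, beside 5.87% and 3.28% of all features, and the median difference was −0.30. The 7 were Nsg2 (−4.88), Bach2 (−3.41), Ets1 (−1.87), Foxo1 (−1.68), the forkhead factor upstream of Klf2 and Il7r, Ikzf1 (−1.23), Themis (−1.19) and Foxp1 (−1.14), a keeper of quiescence. Bach2 and Themis were not well above background in the irradiated mice labelled Il10-/-, where they were at least 4.90-fold and at least 1.27-fold lower. With replicates 1 and 2 averaged Bach2 alone was called in mice labelled WT, and Bach2, Nsg2, Ets1 and Foxo1 in mice labelled Il10-/-. Without the weak replicate 5 Foxp1 and Ltb were called lower as well in mice labelled WT, which made 5. With the slide as a block Rgs10 lost its call, Tob1 was called higher, and Foxp1 and Themis lost theirs in mice labelled Il10-/-.

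The receptor partners of the members behaved differently from list to list. Among 7 tested genes of CCR7 ligands and homing, 2 were called lower in each genotype, Cxcr5 (−2.77 and −2.88), the follicle-homing receptor of B cells, and Cxcr4 (−1.53 and −1.89). With replicates 1 and 2 averaged, or with the slide as a block, Cxcr4 was not called in mice labelled WT. Of 9 genes of interleukin-7 receptor signaling none was called in either genotype in limma, with medians of 0.02 and −0.21. At p below 0.05 were 2 and 7 of them, beside 5397 and 6593 of all 18581 features. Cish, a feedback inhibitor of cytokine receptors, differed by 1.59 and 0.71. Of 8 genes of the sphingosine 1-phosphate axis, S1pr4 was called in mice labelled Il10-/- (−1.39) and not in mice labelled WT (−1.79). Cd69, which pulls S1PR1 from the cell surface when T cells are activated, differed by −1.41 and −1.25 and was not called, except in mice labelled WT without the weak replicate 5. Of 5 tested cofactors of TCF and LEF, Nkd1 was called higher in mice labelled WT (1.80, at least 1.80-fold since its unirradiated signal was not well above background), and this call was lost with replicates 1 and 2 averaged or without the weak arrays.

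Cell type markers set the scale for these differences. Of 11 tested B-cell genes 10 were called lower in each genotype, beside 2.32% and 5.87% of all features. All 11 were lower, from −5.24 to −1.07 in mice labelled WT and from −5.77 to −1.12 in mice labelled Il10-/-. Their medians were −2.91 and −3.56. Vpreb3 fell in both (−5.24 and −5.77), and so did Fcer2a, the low-affinity IgE receptor of mature B cells (−5.09 and −4.34). In mice labelled Il10-/- no irradiated array had Fcer2a well above background, and its mean was at least 11.6-fold lower. Of 13 tested T-cell receptor complex genes only Cd8a was called (−3.03 and −2.02), and the medians were −0.45 and −0.58. In limma 4 and 8 of them had p below 0.05, beside 5397 and 6593 of all 18581 features, the scale for the p counts that follow. Of 20 effector and memory T-cell genes 0 were called in limma in either genotype, with medians of 0.42 and 0.11. At p below 0.05 were 6 in each genotype, all higher in mice labelled WT, and 4 higher and 2 lower in mice labelled Il10-/-. Within that list Gzmb, a cytotoxic granule protease, differed by 1.84 and 1.13 and Eomes, a factor of memory and NK cells, by −0.83 and −0.39. Of 10 NK-cell genes 0 were called (2 with p below 0.05 in each), with medians of 0.39 and 0.08. Without the weak arrays Gzmb, Il2rb and Ctla4 of the effector list were called in mice labelled Il10-/-, and with the slide as a block Gzmb was. The mean level of 11 B-cell genes ranged from 4.48 to 6.03 on the unirradiated and from 1.88 to 2.68 on the irradiated arrays of both genotypes. Its part in the Ccr7 and Dapl1 values was not tested.

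**Figure D4:**
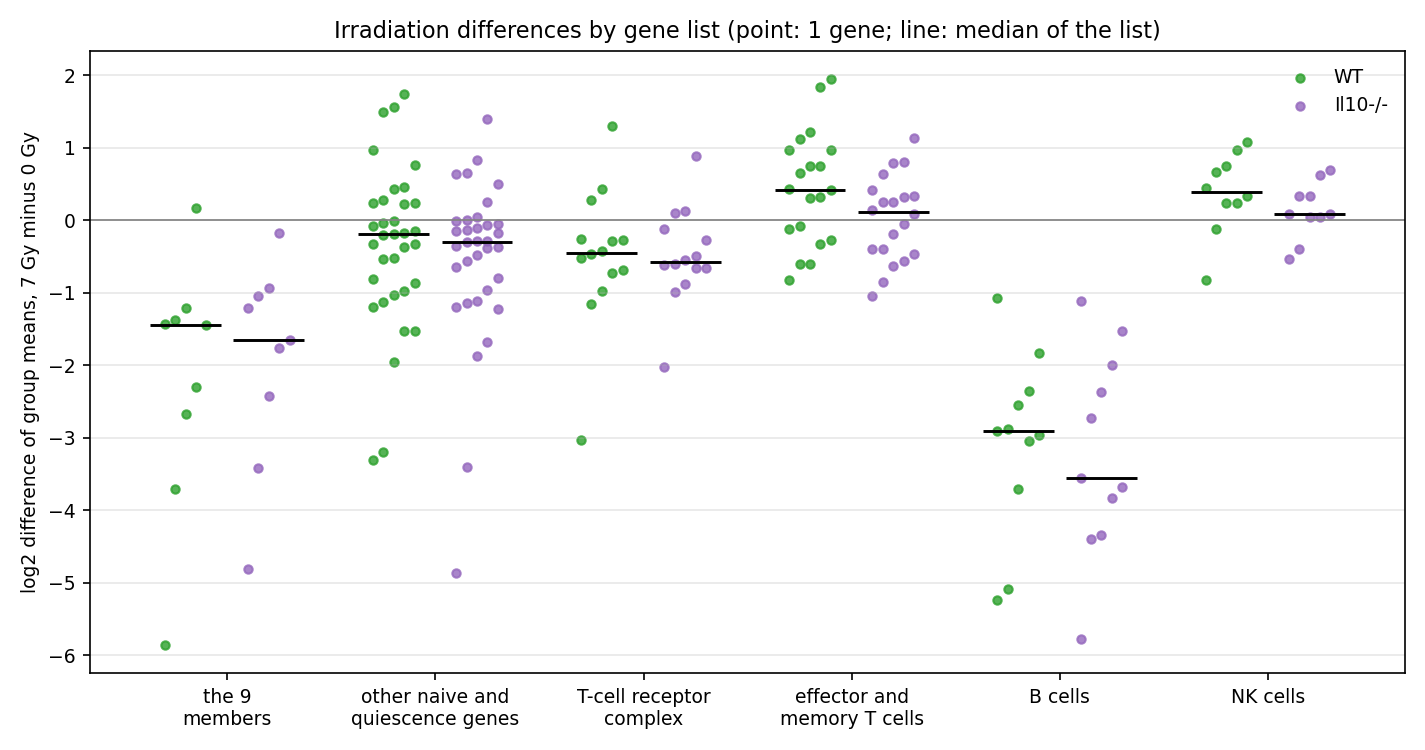
Difference of group means, 7 Gy minus 0 Gy in log2 units (vertical axis), for each gene of 6 lists whose probe passed the background filter; points are genes, green for mice labelled WT and purple for mice labelled Il10-/-, and lines are medians of the list. The members' medians (−1.45 and −1.66) lie below those of the other naive and quiescence genes (−0.20 and −0.30) and of the T-cell receptor complex (−0.45 and −0.58) and above those of B cells (−2.91 and −3.56); the members were chosen with these values known.

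Likeness over the 20 arrays was measured by Pearson's r between log2 signals, given as a description because the arrays share their groups. The genes most like Dapl1 were Ccr6 (r = 0.97), a chemokine receptor of B cells and of some T cells, Fcer2a (0.97), Cd22 (0.96), a transcript with no gene symbol (0.96) and Xkrx (0.96). Those most like the mean of the other 8 members were Dgka (0.99), a diacylglycerol kinase that damps T-cell receptor signaling, Traf5 (0.98), Arhgef18 (0.97), Cdt1 (0.97) and Mthfd1l (0.97). After group means were subtracted, which leaves the variation between arrays of a group, Dgka (0.97), Ugcg (0.96) and the T-cell surface gene Cd2 (0.96) stood closest to the 8 members. For Dapl1 they were then C230085N15Rik (0.83), Pik3cg (0.83) and Btg1 (0.82). Among members over the 20 arrays, Dapl1 was most like Ccr7 (0.95), Tcf7 (0.94) and Lef1 (0.93) and least like Klf2 (0.14). The r of Dapl1 over the 20 arrays includes the dose difference by which it was chosen. Its irradiated signals were mostly not well above background. After group means were subtracted, Ccr7 (0.66) and Lef1 (0.64) were highest, Klf2 was at 0.57, and Il7r (0.32) and S1pr1 (0.26) were lowest.

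Whether the genotype label changed these genes was tested in the same fits. Without irradiation no member was called in limma, where 0.845% of all features were, and 0 of 9 had p below 0.05, beside 2990 of 18581 features. The differences, Il10-/- minus WT, were 0.28 for Tcf7 (adjusted p = 0.687), 0.11 for Lef1 (0.884), 0.47 for Satb1 (0.514), 0.37 for Klf2 (0.600), −0.07 for Ccr7 (0.935) and 0.20 for S1pr1 (0.781). Dapl1 differed by 0.06, with a 95% interval of −0.83 to 0.94 (adjusted p = 0.943). On the brighter probes the highest was Il7r at 0.84 (−0.0018 to 1.68, adjusted p = 0.311), followed by Bcl11b at 0.69 (−0.25 to 1.63, adjusted p = 0.386). The second Bcl11b probe, well above background on 3 of 5 unirradiated arrays labelled WT, differed by 1.15 (−0.07 to 2.38, adjusted p = 0.324). With the slide as a block 384 features in place of 157 were called, and still 0 members. The median of all features was itself 0.36 higher in mice labelled Il10-/- on this scale, and under 75th percentile scaling, where that median was −0.07, Tcf7, Lef1, S1pr1 and Dapl1 turned to −0.07, −0.24, −0.15 and −0.29. Neutrophil genes moved with the label: 7 of 11 were called higher in unirradiated mice labelled Il10-/-, beside 0.845% of all features called. All 11 differences were above 0, from 0.18 to 2.88 with a median of 2.00. The mean of the 16 liver genes was 3.35 higher there. The part of both in the member values was not tested. The mean of the T-cell receptor genes was itself 0.55 higher in unirradiated mice labelled Il10-/-. Relative to that mean on the same array Dapl1 was 0.49 lower (−0.49), from −1.76 to −0.998 against −0.84 to −0.40 in mice labelled WT. Ccr7 differed by −0.62, Lef1 by −0.44, S1pr1 by −0.35, Tcf7 by −0.28, Klf2 by −0.18 and Satb1 by −0.09. Bcl11b (0.14) and Il7r (0.28) were higher, and all members other than Dapl1 overlapped between labels. These values have no test, and no share of all features was taken on this scale.

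After 7 Gy no member was called in limma either, where 0.00538% of all features were. At p below 0.05 were 4 of 9 members, beside 2066 of 18581 features. These members were Bcl11b at 1.01 (95% interval 0.19 to 1.84, adjusted p = 0.401), Satb1 at 0.96 (0.24 to 1.68, adjusted p = 0.390), Il7r at 1.07 (0.27 to 1.88, adjusted p = 0.390) and Dapl1 at 1.11 (0.06 to 2.16, adjusted p = 0.434). The Dapl1 value compares arrays mostly not well above background. The second Bcl11b probe, well above background on 1 of 5 irradiated arrays labelled WT and 2 of 5 labelled Il10-/-, differed by 2.19 (1.17 to 3.21, adjusted p = 0.314). For the second Lef1 probe the difference was 1.02 (0.06 to 1.97, adjusted p = 0.434). All of these were higher in irradiated mice labelled Il10-/-, and none passed the correction over 18581 features. With replicates 1 and 2 averaged, the intervals of Bcl11b (−0.09 to 1.66), Satb1 (−0.02 to 1.70), Il7r (−0.06 to 1.82) and Dapl1 (−0.0040 to 2.31) held 0. Tcf7 differed by 0.53 (adjusted p = 0.641), Lef1 by 0.64 (0.512), Klf2 by 0.04 (0.968), Ccr7 by 0.21 (0.902) and S1pr1 by −0.24 (0.797). The 14 T-cell receptor genes were 0.56 higher on average after irradiation and 0.55 higher without it in mice labelled Il10-/-, and relative to them Tcf7 differed by −0.03 and Lef1 by 0.08 after irradiation.

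The difference between the responses of the genotypes, tested as an interaction over 20 arrays, was called for 0 of 18581 features in limma (0%), with 1300 features and 0 members at p below 0.05. Dapl1 had the largest value among the members, 1.05 (95% interval −0.27 to 2.37, adjusted p = 0.695), with the irradiated side near background. Ccr7 gave 0.28 (−1.24 to 1.81, adjusted p = 0.937) and Tcf7 0.26 (−0.96 to 1.48, adjusted p = 0.932). The intervals of all 9 members held 0 and reached beyond 1 in at least 1 direction, so a 2-fold difference in response could not be told from none for any of them. With replicates 1 and 2 averaged the Dapl1 value was 1.05 with a wider interval (−0.49 to 2.58).

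**Figure D5:**
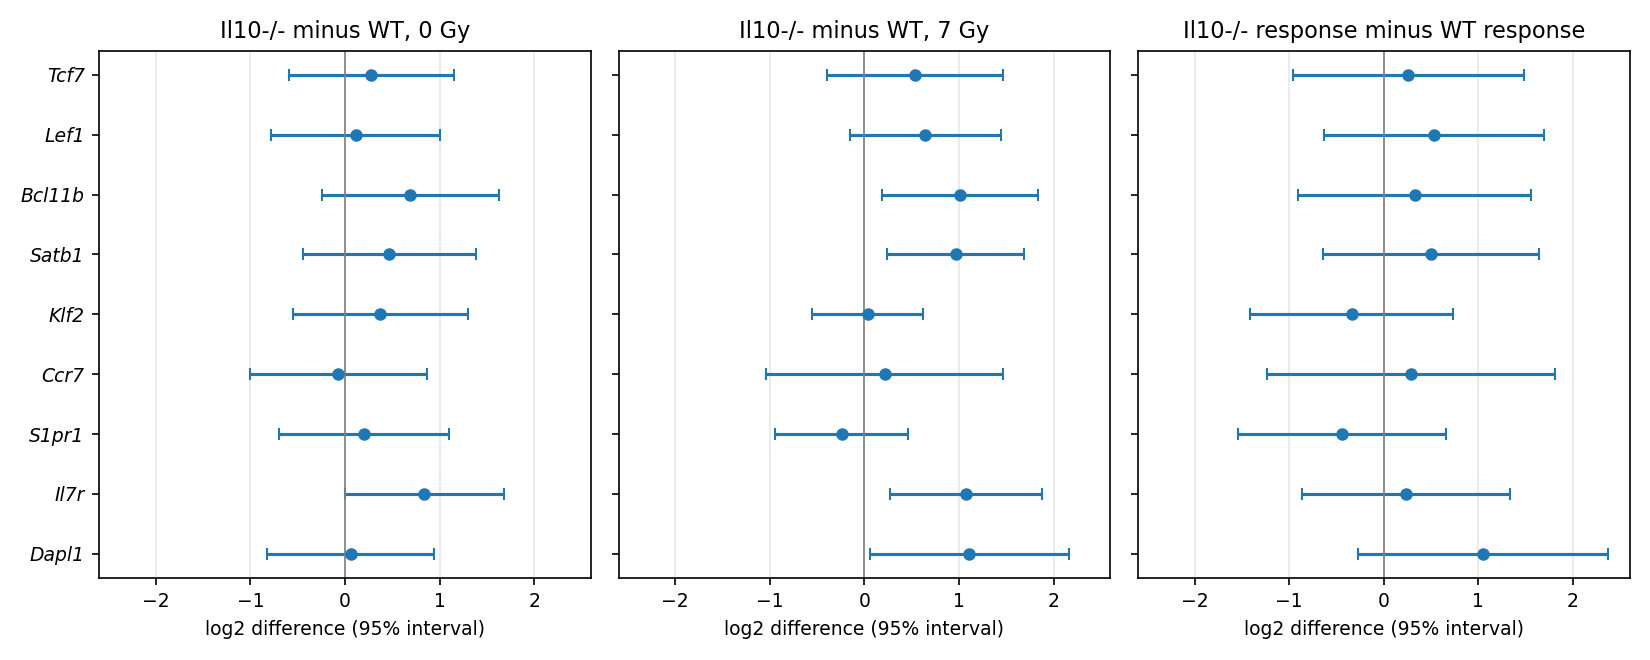
Log2 differences (horizontal axis) of the 9 genes between mice labelled Il10-/- and WT at 0 Gy (left) and at 7 Gy (middle), and between their responses to 7 Gy (right); points are limma estimates and bars 95% intervals, not corrected for the number of features. At 7 Gy the bars of Bcl11b, Satb1, Il7r and Dapl1 lie above 0, and no bar of the right panel excludes 0. With replicates 1 and 2 averaged, which is not drawn, the intervals of these genes at 7 Gy held 0.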

How the data were processed

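Groups came from the sample labels. For each array the authors deposited the spot table of Agilent's Feature Extraction (version 10.7 per the labels and the submitters' processing notes, 12.0.2.2 per the file headers), whose processed intensity has the local background taken off and no scaling from array to array. Log2 values of 16909 features, deposited beside it, equal log2 intensity plus a single constant on 16 of 20 arrays (tolerance 0.01) and served as an alternative only. All 20 of these columns were mapped.

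After removal of spots marked as non-uniform outliers, log2 intensities were averaged by probe and centred on the array's median over 39429 non-control probes. A probe was dropped if at least 25% of the arrays marked it as non-uniform or as not significantly above background. Probes were kept where at least 20% of the arrays differed 1.5-fold or more from the probe's median, which left 18581 features. Values of each comparison were fitted in limma 3.58.1 (R 4.3.3; Python 3.11.15, pandas 2.3.3, numpy 2.4.6) on its 10 arrays, and the interaction on 20. The fits were run on simulated data with independent noise on every array, which leaves out the likeness of replicates 1 and 2. Of changes of 1 unit (down, up) 3.03% and 9.09% were called for WT irradiation and 24.2% each for Il10-/- irradiation. For the label they were 15.2% and 0% at 0 Gy, 27.3% and 24.2% at 7 Gy, and 3.03% each for the interaction. Most changes of that size were thus missed, and 91.2% to 100% of changes of 4 units were called. Adjusted p-values follow Benjamini and Hochberg over all features. No scanner depth exists for arrays, and their number and signal over background limit the precision.

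The members, gene lists and comparisons were chosen with earlier results of these data known. From the lists, some of the genes with the largest or smallest differences and some called genes that opposed their list were named, and others were not. Cish, Gzmb, Cd69 and Eomes were named by their role after their values were seen. Promoters came from RefSeq.

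The labels and file headers tie each replicate number to 1 slide and 1 scan, so a fit with the slide as a block was run as well. Deviations from group means of arrays sharing a number correlated by a mean of −0.13 to 0.41 between groups, and no 2 groups exceeded 0.1 on all 5 slides. Whether replicates came from separate mice rests on the labels, and p-values measure the spread between these arrays.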

Additional observations from a re-analysis of the deposited data

Results flagged for a closer look

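In 4 of the 36 groupings of 5 arrays (9 genes in 4 groups) the lowest array lay further from the rest than Dixon's 95% limit allows, where chance gives about 1 in 20. Ccr7 (5.61) and Dapl1 (3.29) were low on the unirradiated replicate 5 labelled WT, which had the fewest probes well above background, and without that array the differences after irradiation were −4.07 and −6.21. Il7r (2.64) was low on replicate 3 of the irradiated mice labelled Il10-/-, the other weak array. Tcf7 (3.68) was low on replicate 5 of the unirradiated mice labelled Il10-/-, with 48.8% of its probes well above background.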

How the results depend on the processing

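The members' irradiation differences kept their sign under every setting tried, apart from Klf2 in mice labelled WT, and no setting brought a member past the threshold in a genotype comparison or in the interaction. Signal over background limits Dapl1, Bach2 and the dimmer probes of Tcf7 and Bcl11b after irradiation, where several values are bounds. The number of arrays, with replicates 1 and 2 nearly identical, limits the genotype comparisons. Leaving out both weak arrays was chosen after seeing the data. The cause of the changes below was not tested.

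Features called after irradiation numbered 1263 in mice labelled WT. They were 262 with normexp, 2119 with all 4 groups in 1 fit, 2711 with a false discovery rate below 5% alone, 754 with replicates 1 and 2 averaged, and 863 to 1572 with 1 array left out. In mice labelled Il10-/- 1700 were called, against 0 with normexp, 4050 at the 5% rate alone, 815 with replicates averaged and 1133 to 1534 with 1 array left out, the lowest without unirradiated replicate 1. Members called were 4 and 7 in the 2 genotypes, 0 and 0 with normexp, and 4 to 5 and 5 to 8 with 1 array left out; Bcl11b and Il7r lost their call in 5 and 7 of those 10 fits. For the genotype label at 0 Gy, 157 features became 43 under 75th percentile scaling, 81 scaled to the reference array, 25 under quantile normalization, 0 with normexp, 66 without a filter, 57 in the authors' processed values, 76 at the 5% rate alone, and 47 to 181 with 1 array left out, the lowest without replicate 4 labelled WT. At 7 Gy the 1 feature became 3 scaled to the reference array, 0 with normexp, 2 without a filter, 0 with all 4 groups in 1 fit, 3 in the authors' values, 0 with replicates averaged, and 0 to 1 with 1 array left out. With the replicate block (slide), 1627 features and 4 members were called in mice labelled WT. For the Il10-/- label they were 1290 and 5, where Bcl11b and Il7r lost their call, and the block changed no other call of a member. The genotype label then gave 384 features at 0 Gy and 0 at 7 Gy, and the interaction 0. With both weak arrays left out, 694 features were higher and 878 lower under the WT label (832 and 431 with all arrays; the median of all features moved from −0.02 to −0.19), and 640 and 894 under the Il10-/- label (609 and 1091).

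Signs turned as follows, in log2 units. For the label at 0 Gy, Tcf7, Lef1, S1pr1 and Dapl1 became −0.0731, −0.24, −0.15 and −0.29 under 75th percentile scaling, −0.0066, −0.17, −0.0820 and −0.22 scaled to the reference array, −0.14, −0.36, −0.23 and −0.40 under quantile normalization (Satb1 −0.0012), −0.0035, −0.17, −0.0789 and −0.22 in the authors' values, and −0.0495, −0.23, −0.0827 and −0.29 without both weak arrays. Ccr7 became 0.0292 with normexp and 0.0400 with replicates averaged. The all-feature median there was 0.36, against −0.07, 0.01 and 0.11 under the 3 other scalings. Klf2 after irradiation of mice labelled WT became −0.18 without both weak arrays. For the label at 7 Gy, normexp gave −0.0386 for Tcf7, −0.12 for Lef1, −0.84 for Klf2 and −0.38 for Ccr7, and averaged replicates −0.0713 for Ccr7. For the interaction, normexp gave −0.26 for Tcf7, −0.70 for Lef1, −0.37 for Bcl11b, −0.67 for Satb1, −0.41 for Ccr7, −0.53 for Il7r and −0.0743 for Dapl1, and averaged replicates −0.11 for Ccr7. With 1 array left out, Klf2 ran from −0.18 to 0.35 after irradiation of mice labelled WT, the lowest without unirradiated replicate 5. The label at 0 Gy then gave −0.0495 to 0.50 for Tcf7, −0.23 to 0.28 for Lef1, −0.44 to 0.16 for Ccr7, −0.0827 to 0.40 for S1pr1 and −0.29 to 0.22 for Dapl1. At 7 Gy it gave −0.0525 to 0.20 for Klf2 and −0.11 to 0.68 for Ccr7, and the interaction −0.52 to 0.0051 for Klf2 and −0.0407 to 0.75 for Ccr7.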
